A study of Mus musculus with 60 samples.

Results

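Thbs1, Ccl2, Adamts5, Wfdc21 and Cdkn1a are genes whose transcripts were lower in the white fat of mice that had run on a wheel than in sedentary mice. They are 5 of the 54352 genes in a count table of bulk RNA from 3 tissues, and all 5 were found by symbol. The genes were picked because their level was lower after training in subcutaneous (scWAT) or visceral (vWAT) white adipose tissue. They were thus chosen by their training differences in fat, which stand below as a description, with no test. The choice had no numerical threshold, so no gene lies just inside or just outside it. Not used in that choice were the difference between diets, the difference between the fat depots, and triceps muscle. They come from the same mice, and for diet and depot from the same fat libraries, so they are not fully independent of the choice.

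The mice were C57BL/6JN, an inbred strain, taken at an age of 12 weeks. The mice formed 4 groups of 5: trained on a high-fat diet (HFD), sedentary on HFD, trained on chow and sedentary on chow. HFD held 60% of its energy as fat and chow 10%, each fed for 6 weeks, and trained mice had a running wheel, used at will, for the last 3 weeks. All mice were fasted for 6 hours before tissues were taken, and the wheels had been locked for 24 hours. Each of the 20 mice gave scWAT, vWAT and triceps, which makes 60 libraries. Wheel running is voluntary, and the distance run is not given in the labels. RNA was read from its 3′ end, so transcripts of 1 gene with different starts were not told apart. Levels are counts per 1000000 of a library's total (CPM).

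Thbs1 encodes thrombospondin 1, a secreted matrix glycoprotein that can activate latent TGF-beta and that binds the receptors CD36 and CD47. Ccl2 encodes a chemokine that draws monocytes bearing its receptor CCR2 into inflamed tissue, obese fat included. Adamts5 encodes a secreted metalloproteinase that cleaves the proteoglycans aggrecan and versican, and Wfdc21 a small secreted protein with a WAP four-disulfide core, a fold found in several protease inhibitors. Cdkn1a encodes p21, an inhibitor of cyclin-dependent kinases and a classic transcriptional target of p53, whose own level is limited by the ubiquitin ligase MDM2. Expanding fat is known to remodel its matrix and to take up macrophages, which is the setting in which these genes are usually discussed.

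In the mm10 (GRCm38) assembly with GENCODE vM21 gene models, Thbs1 (ENSMUSG00000040152) lies at chr2:118111876-118127133 on the + strand and Ccl2 (ENSMUSG00000035385) at chr11:82035571-82037453 on the + strand. Wfdc21 (ENSMUSG00000051748) lies on the same chromosome as Ccl2, at chr11:83746940-83752642 on the + strand. Adamts5 (ENSMUSG00000022894) lies at chr16:85856173-85901828 on the - strand, and Cdkn1a (ENSMUSG00000023067) at chr17:29090976-29100727 on the + strand. Each value below is a sum over the whole gene. Thbs1, Ccl2 and Cdkn1a each overlap 1 gene on the other strand. The overlapping genes Gm29233 and Gm17268 had 0 counts in all libraries, and the partner of Cdkn1a, AC167363.2, was not found under that name; the strand setting of the counting is not given in the sources used here.

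Of the 5 genes, Cdkn1a matched the RefSeq promoter windows, which run from 250 bases before to 50 bases after an annotated start (GRCm38.p6, + strand). Both of its windows are printed because it is the gene of the 5 with the best known regulator, p53, and because its 2 starts carry different motifs. Capitals mark letters that match a p53 half-site in the first window and GGGCGG (a GC box) in the second.
Cdkn1a, upstream start, chr17:29090729-29091028: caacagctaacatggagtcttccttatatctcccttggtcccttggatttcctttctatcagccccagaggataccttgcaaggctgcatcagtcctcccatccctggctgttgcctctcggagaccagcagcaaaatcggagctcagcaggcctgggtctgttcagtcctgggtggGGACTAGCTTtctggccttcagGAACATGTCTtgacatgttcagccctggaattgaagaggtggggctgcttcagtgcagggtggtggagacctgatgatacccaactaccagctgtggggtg
Cdkn1a, downstream start, chr17:29093519-29093818: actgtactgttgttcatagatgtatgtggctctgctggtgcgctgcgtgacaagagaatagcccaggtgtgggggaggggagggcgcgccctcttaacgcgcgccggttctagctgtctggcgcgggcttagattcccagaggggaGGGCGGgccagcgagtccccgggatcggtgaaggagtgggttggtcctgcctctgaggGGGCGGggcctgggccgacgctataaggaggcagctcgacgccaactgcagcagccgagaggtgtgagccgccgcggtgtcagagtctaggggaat
The p53 half-sites began 73 and 51 bases before the upstream start, and each reads as a half-site on both strands. The GC boxes began 104 and 46 bases before the downstream start, on the + strand. Both strands were searched for 5 motifs, and 8.36% of 32851 promoter windows held a p53 half-site, 35.7% the GC box, 13.6% the TATA box, spelled TATAAA, 7.15% the E-box, spelled CACGTG, and 7.81% the AP-1 site, spelled TGANTCA. A match is a description of these letters and not a measured binding site.

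Library totals ran from 505336 to 744581 estimated counts, with a median of 666522.5, so 1 count is worth between 1 and 2 CPM and a gene at 10 CPM rests on a handful of reads per library. A count of 0 allows up to 3 counts, or 4.03 to 5.94 CPM over the libraries, counting error only. The labelled tissues carried their own markers: the 8 adipocyte genes summed to 28866 to 62314 CPM in fat and 317 to 962 CPM in triceps, and the 10 skeletal muscle genes to 59875 to 124622 CPM in triceps. Some fat libraries carried other tissue. Skeletal muscle genes reached 67402 CPM in 1 scWAT library, and 6 chow scWAT libraries (trained and sedentary replicates 2, 4 and 5) held 403 to 1108 reads of the lymph node genes Ccl21a, Ccl19 and Cxcl13. Epididymis genes were at 0 in scWAT and reached 2022 CPM (1208 reads) in 1 trained chow vWAT library, replicate 3. The other libraries of the vWAT block of 12 described below held 1 to 38 of these reads each. Every vWAT library outside that block held 0. The source of these reads was not tested. Library codes in the headers run consecutively within each tissue, without a break. They were divided here into library code blocks of 12, after the pools of 12 wells in the protocol. The headers do not give the block boundaries. As an assumption, a boundary was set at the vWAT code where transcripts foreign to the tissue start. The division was thus drawn in part from these same libraries. Under that division scWAT spanned 2 blocks with every group in each, and vWAT and triceps each spanned a block of 5 chow libraries, a block of 12 with all groups and a block of 3 HFD libraries. Diet and block were thus partly confounded in vWAT and triceps. With the block as a factor, the diet difference there rests on the block of 12. The depots shared no block. Nothing in the labels says more than that the mice were separate animals.

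In scWAT, Thbs1 was lower in trained mice on HFD. There it had 13.3, 20.0, 14.4, 18.4 and 16.8 CPM in trained mice, against 103, 79.2, 38.0, 50.1 and 149.7 CPM in sedentary mice. Every trained library was below every sedentary one, and the fitted difference was 4.82-fold lower (log2 -2.27, SE 0.30). On chow, scWAT had 12.95, 6.53, 8.71, 12.0 and 8.13 CPM in trained mice, against 13.9, 15.8, 11.1, 4.59 and 11.7 CPM in sedentary mice, and the groups overlapped (log2 -0.10, SE 0.40). That chow value changed sign within 1 of the library code blocks (0.37) and without trained chow replicate 2 (0.023). It rested on 4 to 8 reads in each trained library and 3 to 9 in each sedentary one.

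In vWAT, Thbs1 was lower after training on either diet. On HFD it had 30.3, 54.8, 29.5, 32.3 and 32.3 CPM in trained mice, against 172, 203, 182, 79.8 and 163 CPM in sedentary mice. On chow it had 16.8, 14.6, 21.8, 29.7 and 26.5 CPM in trained mice, against 67.2, 84.6, 49.7, 88.9 and 94.1 CPM in sedentary mice. Trained and sedentary libraries were apart on both diets, with log2 differences of -2.09 (SE 0.22) on HFD and -1.77 (SE 0.25) on chow.

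Ccl2 followed Thbs1 in scWAT, with a difference on HFD and low values in every chow library. In scWAT on HFD it had 10.4, 2.86, 6.40, 5.01 and 3.05 CPM in trained mice, against 27.8, 53.8, 22.2, 46.9 and 46.8 CPM in sedentary mice, with no overlap (log2 -2.76, SE 0.41). On chow, where each library held 1 to 8 reads, it averaged 5.15 ± 3.93 CPM in trained mice and 7.35 ± 3.33 CPM in sedentary mice (SD, n = 5 each), with overlap (log2 -0.40, SE 0.50). Within the 2 library code blocks of scWAT that chow value was 0.23 and -1.10.

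In vWAT, sedentary mice on HFD had the highest and most spread Ccl2 values of all groups. Trained mice on HFD had 22.8, 26.7, 12.4, 27.9 and 13.6 CPM, against 139, 35.5, 46.7, 116 and 184 CPM in sedentary mice, so the groups were apart although sedentary mice differed widely among themselves (log2 -2.25, SE 0.49). Trained mice on chow had 3.05, 3.24, 6.69, 8.24 and 12.5 CPM, against 50.0, 8.14, 16.1, 9.36 and 19.1 CPM in sedentary mice. These groups overlapped (log2 -1.53, SE 0.71), and the value was -0.92 without sedentary chow replicate 1 and -0.57 in the block of 12 libraries alone.

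Adamts5 differed in scWAT on HFD and in vWAT on chow. In scWAT on HFD it had 121, 107, 104, 160.2 and 178 CPM in trained mice, against 311, 481, 261, 207 and 432 CPM in sedentary mice, with no overlap (log2 -1.29, SE 0.33). In vWAT on chow it had 83.9, 107, 92.1, 115 and 136 CPM in trained mice, against 199.9, 246, 200.1, 298 and 249 CPM in sedentary mice, again with no overlap (log2 -1.12, SE 0.17). The other 2 fat comparisons overlapped.

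In vWAT on HFD Adamts5 had 314, 345, 360.1, 178 and 259 CPM in trained mice, against 429, 431, 390.0, 282 and 329 CPM in sedentary mice (log2 -0.30, SE 0.16). In scWAT on chow it had 21.1, 29.4, 40.7, 37.7 and 45.5 CPM in trained mice, against 175, 47.5, 68.0, 62.7 and 31.8 CPM in sedentary mice (log2 -1.03, SE 0.37). One sedentary mouse, replicate 1, carried much of this last difference, which was -0.48 without it, -1.74 without the 6 libraries with lymph node transcripts, and -1.87 and -0.09 within the 2 library code blocks.

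Wfdc21 was lower in trained vWAT on both diets. On HFD it had 481, 498, 296, 487 and 507 CPM in trained mice, against 1059, 898, 923, 1107 and 1073 CPM in sedentary mice (log2 -1.10, SE 0.15). On chow it had 175, 169.9, 191, 130.2 and 176 CPM in trained mice, against 593, 379, 340.3, 398 and 409.8 CPM in sedentary mice (log2 -1.30, SE 0.15). In both comparisons all trained libraries were below all sedentary ones.

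In scWAT the Wfdc21 groups overlapped on either diet. Trained mice on HFD had 363, 337, 182, 374 and 366 CPM, against 420.5, 518, 349.9, 501 and 585 CPM in sedentary mice (log2 -0.52, SE 0.28). Trained mice on chow had 110.1, 91.4, 82.8, 53.1 and 61.8 CPM, against 273, 127, 112, 119 and 72.0 CPM in sedentary mice (log2 -0.69, SE 0.29), and this difference was -0.29 without sedentary replicate 1, the same mouse as above.

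Cdkn1a, the one intracellular protein of the 5, had lower means in trained mice in all 4 fat comparisons. In scWAT on HFD it had 7.40, 10.0, 19.2, 6.68 and 10.7 CPM in trained mice, against 54.2, 25.5, 63.3, 48.5 and 45.2 CPM in sedentary mice. In vWAT on HFD it had 13.7, 16.3, 12.4, 4.40 and 13.6 CPM in trained mice, against 85.2, 53.2, 63.2, 50.8 and 76.2 CPM in sedentary mice. Both HFD comparisons were free of overlap, with log2 differences of -2.08 (SE 0.37) and -2.38 (SE 0.42).

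On chow the Cdkn1a groups overlapped in both depots. In scWAT trained mice had 1.62, 4.90, 8.71, 5.14 and 8.13 CPM, against 17.0, 5.94, 23.6, 29.0 and 31.8 CPM in sedentary mice (log2 -1.78, SE 0.44). In vWAT trained mice had 1.52, 9.71, 25.1, 6.59 and 7.81 CPM, against 32.7, 9.77, 59.9, 29.6 and 23.9 CPM in sedentary mice (log2 -1.61, SE 0.47). In scWAT the sedentary mouse at 5.94 CPM lay within the trained range, and in vWAT the trained mouse at 25.1 CPM lay within the sedentary range. The vWAT difference was -2.26 without trained replicate 3 and -0.97 in the block of 12 libraries alone. That replicate is the vWAT library with epididymis genes at 2022 CPM, and its smooth muscle and pericyte genes summed to 3125 CPM; their part in its Cdkn1a value was not tested.

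**Figure D1:**
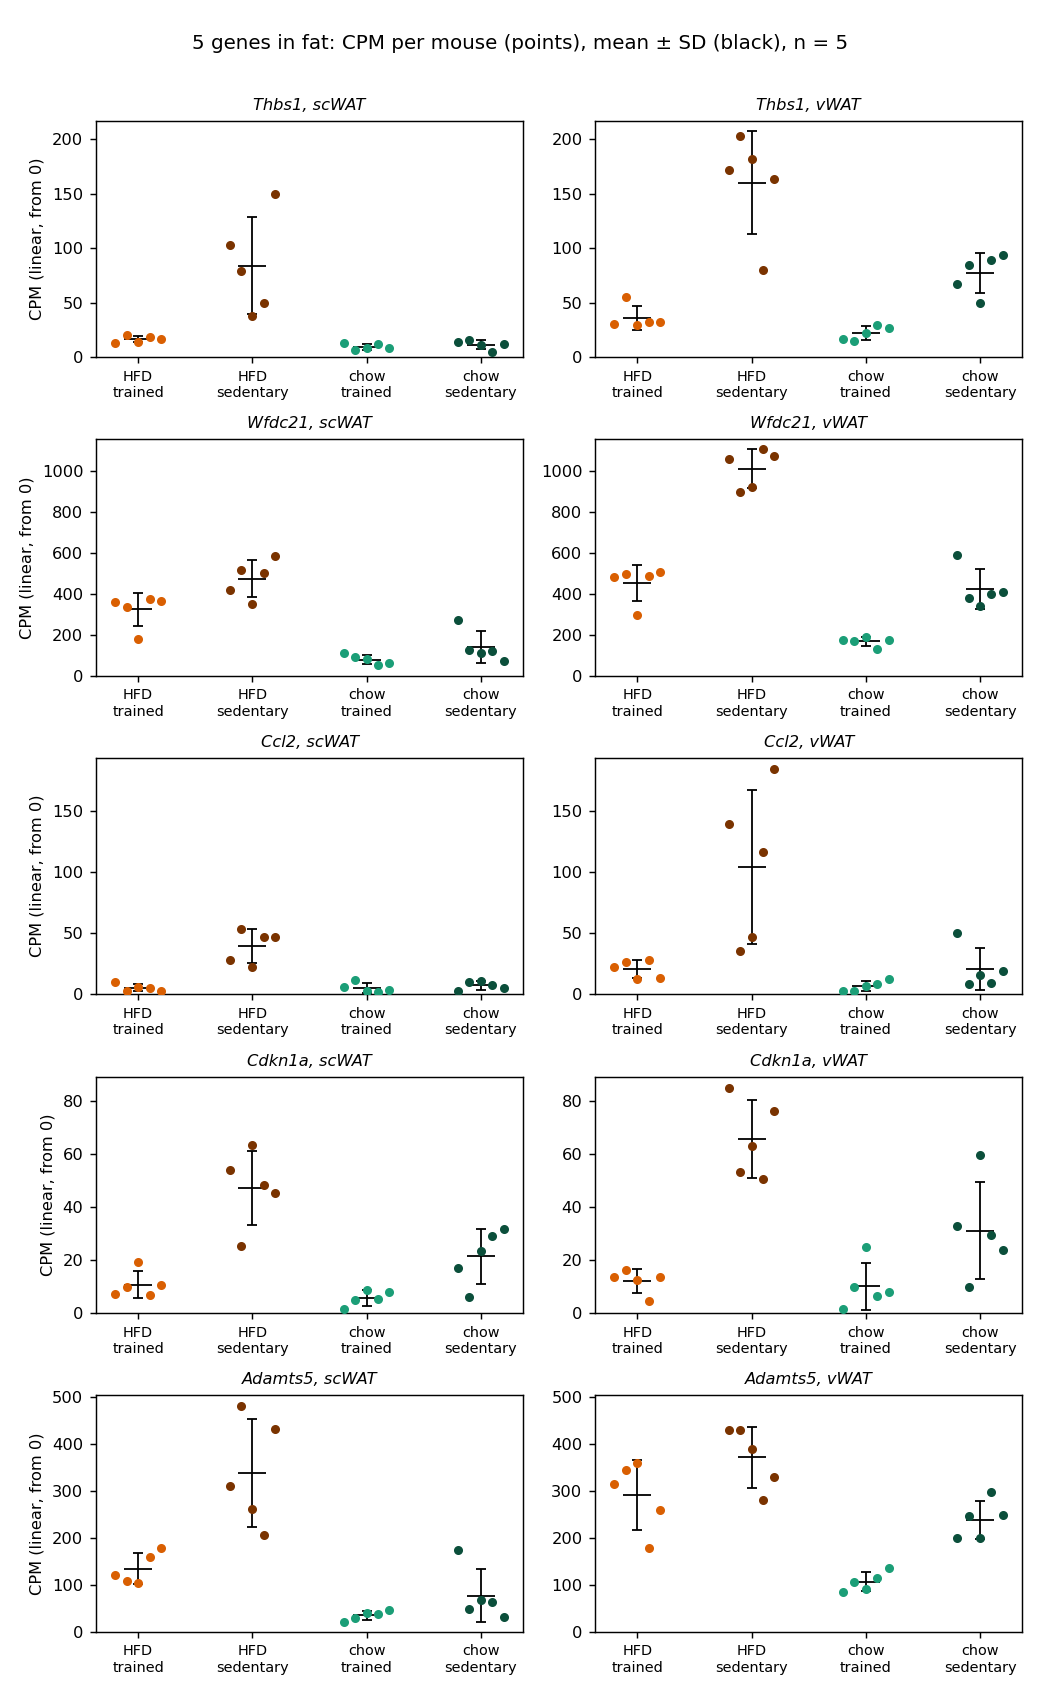
CPM of the 5 genes (y axis, linear from 0) in scWAT on the left and vWAT on the right, by group (x axis). Points are mice, and black bars are the mean ± SD of 5 mice. In vWAT on HFD the trained mice have 454 ± 88.5 CPM of Wfdc21 and the sedentary mice 1012 ± 94.8 CPM, and in scWAT on HFD the trained mice have 16.6 ± 2.76 CPM of Thbs1 and the sedentary mice 83.9 ± 44.6 CPM.

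All trained libraries were below all sedentary libraries for 4 of the 5 genes in scWAT on HFD, 0 in scWAT on chow, 4 in vWAT on HFD and 3 in vWAT on chow. Over all genes tested that was so for 1.53%, 0.891%, 2.72% and 1.17%; since this contrast chose the genes, the shares stand beside the counts without being read as evidence. In bulk tissue, fewer cells of a type and less RNA per cell cannot be told apart. The 12 macrophage and monocyte genes had lower median sums in trained than in sedentary HFD mice, with overlapping ranges in both depots. On HFD they summed to 785 to 1678 CPM in trained vWAT against 1401 to 6017 CPM in sedentary vWAT. In HFD scWAT they summed to 294 to 722 CPM in trained mice against 595 to 1521 CPM in sedentary mice. Of the 10 that were tested, C1qa and C1qb were called lower after training in HFD vWAT and 0 in HFD scWAT by edgeR (unadjusted p below 0.05 for 8 and 2). The 8 neutrophil genes summed to 17.6 to 50.4 CPM in trained HFD vWAT against 42.2 to 263 CPM in sedentary HFD vWAT, with Ngp at 0 in every vWAT library, and S100a8 was called lower. In HFD scWAT the neutrophil sums were 0 to 16.8 CPM in trained mice against 7.9 to 95.1 CPM in sedentary mice, with Ltf and Mmp8 at 0, and the 10 skeletal muscle genes summed to 74.3 to 1140 CPM in trained mice against 250.5 to 48752 CPM in sedentary mice. The 8 adipocyte genes, none at 0, summed to 51616 to 62314 CPM in trained HFD scWAT against 28866 to 48596 CPM in sedentary HFD scWAT, with no overlap, and to 38985 to 53904 CPM in trained HFD vWAT against 35181 to 46726 CPM in sedentary HFD vWAT. Cfd, 1 of the 8, was called higher in trained HFD scWAT (log2 1.31, SE 0.30, edgeR adjusted p = 0.0294).

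Single vessel and stromal markers were called as well, while the sums of their lists overlapped. Smooth muscle and pericyte genes summed to 406 to 630 CPM in trained HFD scWAT against 548 to 1207 CPM in sedentary HFD scWAT, and 1 of 4 tested, Rgs5, was called lower (log2 -0.85, SE 0.21, edgeR adjusted p = 0.0442). In HFD vWAT the progenitor and fibroblast gene Col3a1 (log2 -0.74, SE 0.13, edgeR adjusted p = 0.000947), 1 of 7 tested, and the endothelial gene Cldn5 (-1.19, SE 0.30, edgeR adjusted p = 0.03), 1 of 6 tested, were called lower. There the progenitor and fibroblast genes summed to 1815 to 4039 CPM in trained mice against 2361 to 3325 CPM in sedentary mice. Endothelial genes summed to 222 to 381 CPM against 341 to 540 CPM, and smooth muscle and pericyte genes to 609 to 1031 CPM against 643 to 1174 CPM.

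On chow 0 of 57 marker genes tested in scWAT and 0 of 43 in vWAT were called with training by edgeR (unadjusted p below 0.05 for 1 and 5). Over all genes 0 of 7069 were called in scWAT and 0.587% of 6990 in vWAT, so these counts do not tell whether the markers changed. Macrophage and monocyte genes summed to 211 to 1381 CPM in trained chow scWAT against 358 to 1447 CPM in sedentary chow scWAT, and to 487 to 1034 CPM in trained chow vWAT against 805 to 1055 CPM in sedentary chow vWAT. Adipocyte genes summed to 30357 to 48647 CPM in trained chow scWAT against 31017 to 41826 CPM in sedentary chow scWAT, and to 44155 to 54037 CPM in trained chow vWAT against 45955 to 57563 CPM in sedentary chow vWAT. All 4 of these chow pairs overlapped. The part of any of these markers in the training differences was not tested.

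Whether the 5 genes also differ with diet was asked by setting both HFD groups against both chow groups, averaged over activity. HFD was higher for 4 of the 5 in scWAT and for 4 of the 5 in vWAT by edgeR's quasi-likelihood test (Benjamini-Hochberg adjusted p below 0.05), where 8.09% and 5.52% of all tested genes were called higher. In a balanced design this average is uncorrelated with the training difference if groups vary alike, although both use 1 estimate of spread. The groups did not vary alike for every gene. On HFD, Thbs1 in scWAT had an SD of 44.6 CPM in sedentary mice and 2.76 CPM in trained mice. Ccl2 in HFD vWAT had an SD of 62.7 CPM in sedentary mice and 7.25 CPM in trained mice. The diet calls are thus not wholly free of the choice of genes. On these contrasts the median of all genes was shifted by -0.23 in scWAT and -0.19 in vWAT when TMM scaling replaced total counts, and all values given are on the TMM scale.

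Wfdc21 and Adamts5 were higher on HFD in both depots. Wfdc21 rose by 1.65 (log2, SE 0.21, adjusted p = 8.52e-06) in scWAT, where all 10 HFD libraries held more than the chow libraries of the same activity. In vWAT it rose by 1.15 (log2, SE 0.11, adjusted p = 1.57e-09), with the same separation. Adamts5 rose by 1.78 (log2, SE 0.25, adjusted p = 6.84e-05) in scWAT and by 0.86 (log2, SE 0.11, adjusted p = 2.9e-06) in vWAT by the same edgeR test. Its HFD and chow libraries were apart at matched activity in scWAT, whereas in vWAT sedentary mice overlapped.

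Thbs1 and Ccl2 were also called higher on HFD in both depots. Thbs1 rose by 1.59 (log2, SE 0.25, adjusted p = 8e-05) in scWAT by edgeR. There it averaged 16.6 ± 2.76 CPM in trained HFD mice and 9.66 ± 2.71 CPM in trained chow mice, and 83.9 ± 44.6 CPM in sedentary HFD mice and 11.4 ± 4.26 CPM in sedentary chow mice (SD, n = 5 each), with no overlap within either activity. In vWAT it rose by 0.70 (log2, SE 0.17, adjusted p = 0.00498 by edgeR), and that call was lost with the library code block as a factor (0.49, adjusted p = 0.172) and in the block of 12 libraries alone (0.51, adjusted p = 0.243). Ccl2 rose by 1.02 (log2, SE 0.33, adjusted p = 0.036 by edgeR) in scWAT, a call lost without the 6 libraries with lymph node transcripts (adjusted p = 0.187), with limma voom (adjusted p = 0.181) and in 10 of 20 fits that left out 1 library (adjusted p of 0.0506 to 0.113). Those libraries were sedentary chow replicates 1, 4 and 5, trained chow replicates 3, 4 and 5, sedentary HFD replicates 2 and 4 and trained HFD replicates 1 and 3, and in the library code block of 9 libraries alone Ccl2 gave 0.73 (adjusted p = 0.491). Ccl2 had 22.2 to 53.8 CPM in sedentary HFD scWAT and at most 11.4 CPM in the other scWAT groups. The filter on low counts, applied by group, thus let it into this test only through the group where it was high. That favours a call of higher on HFD.

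The average over activity joins unlike values for Ccl2 in scWAT. Trained mice had 5.53 ± 3.07 CPM on HFD and 5.15 ± 3.93 CPM on chow, which overlapped. Sedentary mice had 39.5 ± 13.7 CPM on HFD and 7.35 ± 3.33 CPM on chow (SD, n = 5 each), which did not. The training difference on HFD minus that on chow was -2.36 (log2, SE 0.67) for Ccl2 and -2.17 (SE 0.51) for Thbs1 in scWAT; it is built from the training differences that chose the genes and is given with no test. For the other 3 genes in scWAT it lay between -0.30 and 0.17, and in vWAT it ran from -0.76 for Cdkn1a to 0.82 for Adamts5.

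In vWAT Ccl2 rose by 1.79 (log2, SE 0.43, adjusted p = 0.00991 by edgeR), and the call was lost with the library code block as a factor (1.63, adjusted p = 0.134) and in the block of 12 libraries alone (1.69, adjusted p = 0.0841). Cdkn1a was not called with diet: its difference was 0.76 (log2, SE 0.30, adjusted p = 0.0796 by edgeR) in scWAT and 0.47 (SE 0.33, adjusted p = 0.437) in vWAT. Scaling to total counts brought the scWAT value to 1.00 (adjusted p = 0.0121), and it was also called with no filter on low counts (0.78, adjusted p = 0.0326) and without sedentary HFD replicate 2 (0.85, adjusted p = 0.0478) or trained chow replicate 3 (0.91, adjusted p = 0.0472).

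Markers of other cells moved with diet as well. In scWAT, 4 of 10 tested macrophage and monocyte genes, 4 of 6 progenitor and fibroblast genes and 4 of 4 smooth muscle and pericyte genes were called higher on HFD, and in vWAT 6 of 10, 2 of 7 and 0 of 4. Of the 8 adipocyte genes 1 was called higher on HFD in scWAT (list median 0.17, log2), whereas 4 were called lower in vWAT (median -0.36): Cfd, Retn, Pnpla2 and Lipe. Adipocyte genes summed to 35181 to 53904 CPM on HFD against 44155 to 57563 CPM on chow in vWAT. The 1 neutrophil gene tested in vWAT, S100a8, was called higher (log2 2.16, SE 0.38, edgeR adjusted p = 0.000887). All 13 tested B cell, T cell and lymph node stroma genes were called lower on HFD in scWAT, where the 6 libraries with lymph node transcripts are all chow. The progenitor and fibroblast genes summed to 1531 to 4144 CPM on HFD against 974 to 2493 CPM on chow in scWAT, and to 1815 to 4039 CPM on HFD against 1831 to 2473 CPM on chow in vWAT, with none of the 8 at 0. Their part in the diet differences was not tested.

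**Figure D2:**
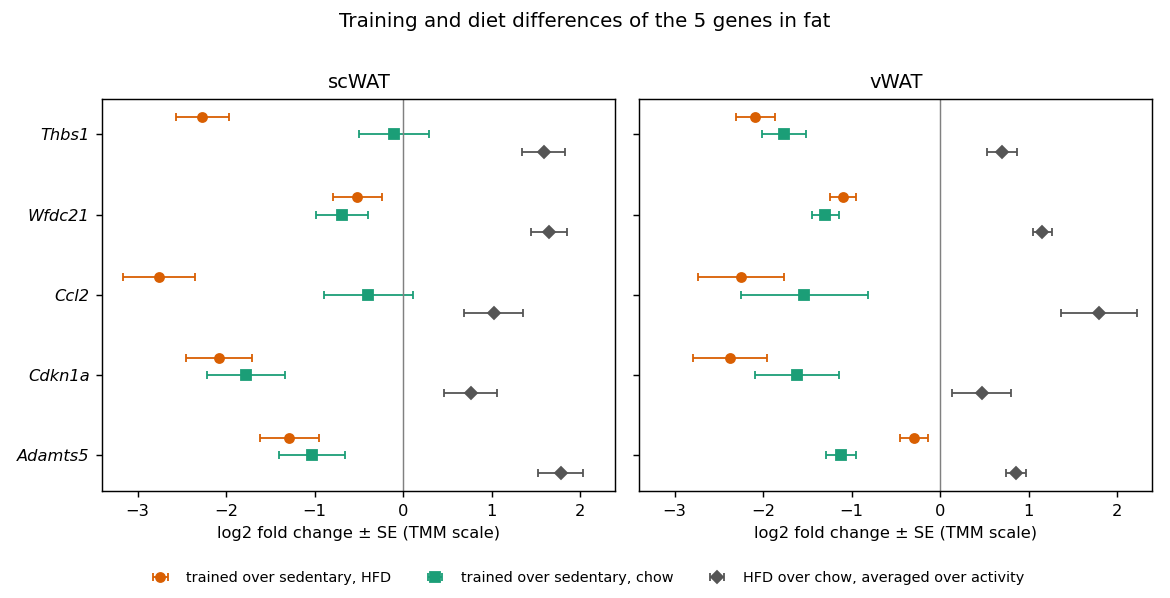
Log2 fold changes (x axis, TMM scale) with their SE as bars for the 5 genes (rows) in scWAT and vWAT. Circles are trained over sedentary on HFD, squares the same on chow, and diamonds HFD over chow averaged over activity. All 20 training values lie below 0, as the choice of genes fixes in part, and the 10 diet values lie above 0.

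Between depots, 4 of the 5 genes were lower in scWAT than in vWAT of the same mice, averaged over the 4 groups, where 14.1% of 7931 tested genes were called lower. Thbs1 was lower by -1.42 (log2, SE 0.14, adjusted p = 3.28e-09), Wfdc21 by -1.02 (SE 0.08, adjusted p = 1.94e-11) and Adamts5 by -1.10 (SE 0.15, adjusted p = 7.84e-06) in edgeR fits with the animal as a block. Ccl2 was lower by -1.14 (SE 0.30, adjusted p = 0.00625 by edgeR), a call lost without the 6 mice whose scWAT held lymph node transcripts (-1.20, adjusted p = 0.0973). Cdkn1a gave -0.40 (SE 0.16, adjusted p = 0.0614 by edgeR) and passed the threshold on total counts (-0.49, adjusted p = 0.0223), without those 6 mice (-0.64, adjusted p = 0.0239) and without 1 of 4 single mice (-0.43 to -0.46, adjusted p of 0.0308 to 0.0479). Those 4 were sedentary chow replicates 4 and 5, sedentary HFD replicate 4 and trained HFD replicate 3. Depot and library code block cannot be told apart, since no block held both depots. Of 10 tested macrophage and monocyte genes 6 were called lower in scWAT, and of 10 skeletal muscle genes 8 were called higher; their part in the depot differences was not tested.

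The effect of diet was larger in scWAT than in vWAT for Wfdc21 (log2 difference 0.56, SE 0.16, edgeR adjusted p = 0.0335) and Adamts5 (1.04, SE 0.29, edgeR adjusted p = 0.0447), where 3.2% of all genes were called higher. This comparison was added after the data were seen, and both calls were lost without the 6 mice whose scWAT held lymph node transcripts.

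The order of levels was much alike for the 5 genes. That sedentary fat stood above trained fat follows in part from the choice of genes and is no separate finding. Sedentary HFD vWAT had the highest mean of the 12 groups for each gene and sedentary HFD scWAT the next highest. For Wfdc21 the top group stood apart, at 898 to 1107 CPM against 349.9 to 585 CPM in sedentary HFD scWAT. Below that, neighbouring groups in the order had overlapping ranges at 11 of 11 steps for Thbs1, Ccl2 and Cdkn1a, at 9 of 11 for Wfdc21 and at 10 of 11 for Adamts5. The other step between neighbours for Wfdc21 lay between trained chow scWAT (53.1 to 110.1 CPM) and sedentary chow triceps (0 to 10.98 CPM), and the one for Adamts5 between sedentary chow vWAT (199.9 to 298 CPM) and trained HFD scWAT (104 to 178 CPM). For Cdkn1a, sedentary triceps on chow ranked 5 by mean among the 12 groups, at 13.4 ± 8.61 CPM, above the trained fat groups.

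Related genes were looked up in 10 lists of 156 entries, of which 71 were tested in scWAT and 78 in vWAT. Training on HFD called 4 of them lower and 1 higher in scWAT, where 1% of all tested genes were called, and 9 lower and 1 higher in vWAT, where 3.09% were called. Training on chow called 0 of them in either depot by edgeR (unadjusted p below 0.05 for 5 in scWAT and 13 in vWAT); over all genes it called 0 in scWAT, where 377 had an unadjusted p below 0.05, DESeq2 called 3 and limma voom 0, and 0.587% in vWAT. In vWAT on HFD 5 of the 10 lists had at least 1 call.

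Chemokines and their receptors made up most of these calls. In vWAT on HFD, 5 of 8 tested were lower after training, with a list median of -1.36 (log2) against 0.02 for all genes, and in scWAT 3 of 8, with a median of -1.19 against -0.01. Ccl7, a chemokine of the same cluster as Ccl2 that also acts on CCR2, averaged 19.3 ± 5.95 CPM in trained HFD vWAT and 84.7 ± 49.3 CPM in sedentary HFD vWAT (SD, n = 5 each; log2 -2.06, SE 0.42, edgeR adjusted p = 0.0101). The receptor Ccr2 averaged 31.9 ± 8.01 CPM in trained HFD vWAT and 68.9 ± 22.6 CPM in sedentary HFD vWAT (log2 -1.05, SE 0.24, edgeR adjusted p = 0.0101). Ccl9, another monocyte-attracting chemokine gene, gave -1.66 there (SE 0.36, edgeR adjusted p = 0.0157). In the block of 12 libraries alone these 3 calls were lost (adjusted p of 0.301 to 0.303).

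In scWAT on HFD, Ccl7 fell by 2.14 (SE 0.41, edgeR adjusted p = 0.00739), Ccl9 by 1.36 (SE 0.30, edgeR adjusted p = 0.0212) and Ccr2 by 1.23 (SE 0.30, edgeR adjusted p = 0.0388) on the log2 scale. Leaving out 1 library ended the Ccr2 call in 9 of 20 fits and the Ccl9 call in 5 of 20, and within the block of 9 libraries all 3 were lost. Within the block of 11 libraries the edgeR calls of Ccr2 (adjusted p = 0.137) and Ccl9 (adjusted p = 0.0933) were lost. On total counts Ccr2 was not called by edgeR (adjusted p = 0.0643). Ccl7 entered the test in 17 of the 20 fits, and its call stayed in those 17. It had 15.8 to 49.9 CPM in sedentary HFD scWAT and at most 14.8 CPM in the other scWAT groups. The filter on low counts thus let it in only through the group where it was high. The acute phase protein gene Saa3, in the inflammatory list, averaged 28.1 ± 18.1 CPM in trained HFD vWAT and 374 ± 375 CPM in sedentary HFD vWAT (log2 -3.65, SE 0.72, edgeR adjusted p = 0.011), and reads are divided among the Saa paralogs by estimation. In HFD scWAT it gave -3.398 (SE 0.56, edgeR adjusted p = 0.00513), a call lost with limma voom (adjusted p = 0.0518) and in the block of 9 libraries alone. The vWAT call was lost in the block of 12 libraries alone (edgeR adjusted p = 0.33). In scWAT Saa3 had 26.4 to 223 CPM in sedentary HFD mice, and medians of at most 6.40 CPM in the other groups. Saa3 thus also passed the filter on low counts there through the group where it was high. It was the 1 inflammatory gene of 7 tested that was called in either depot.

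Of 8 tested thrombospondins and thrombospondin receptors 0 were called with training on HFD in either depot by edgeR, beside 1% of all genes in scWAT and 3.09% in vWAT (unadjusted p below 0.05 for 0 in scWAT and 1 in vWAT), and the receptors Cd36 and Cd47 gave -0.16 (SE 0.10, edgeR adjusted p = 0.525) and 0.17 (SE 0.15, edgeR adjusted p = 0.692) in vWAT. In the TGF-beta list, 1 of 11 tested genes was called in HFD vWAT, Ccn1, a matricellular protein gene, at -0.99 (SE 0.27, edgeR adjusted p = 0.0355). Tgfb1 had too few counts to be tested.

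Among ADAMTS enzymes, substrates and matrix partners, the small proteoglycan genes Lum (log2 -0.74, SE 0.19, edgeR adjusted p = 0.0242) and Bgn (-0.58, SE 0.17, edgeR adjusted p = 0.044) were lower in trained HFD vWAT, 2 of 9 tested. The versican gene Vcan, whose product ADAMTS5 cleaves, gave -0.34 (SE 0.35, edgeR adjusted p = 0.744). The gelatinase gene Mmp2 gave -0.06 (SE 0.28, edgeR adjusted p = 0.955) in HFD vWAT, a value that changed sign under 4 alternatives. Leaving out 1 library ended the call of Lum in 6 of 20 fits, of Bgn in 13 and of Ccn1 in 6, and in the block of 12 libraries alone all 3 were lost (adjusted p of 0.355 to 0.486). The Bgn call was also lost with limma voom (adjusted p = 0.052), and that of Lum with the replicate block (edgeR adjusted p = 0.0502). Of the WAP domain genes, 1 was tested in scWAT and 2 in vWAT, and 0 were called with training on HFD by edgeR (unadjusted p below 0.05 for 0 and 1).

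Of the p53 targets, 0 of 9 tested in scWAT and 0 of 10 in vWAT were called with training on HFD by edgeR, beside 1% and 3.09% of all genes (unadjusted p below 0.05 for 3 in each), with list medians of -0.31 and -0.28 (log2). Mdm2 averaged 15.3 ± 3.32 CPM in trained HFD vWAT and 14.7 ± 5.48 CPM in sedentary HFD vWAT (log2 0.12, SE 0.37, edgeR adjusted p = 0.933), and in scWAT it gave -0.10 (SE 0.33, edgeR adjusted p = 0.96). Another inhibitor of cyclin-dependent kinases, Cdkn2c, rose. It averaged 309 ± 58.6 CPM in trained HFD vWAT and 181 ± 20.2 CPM in sedentary HFD vWAT (log2 0.83, SE 0.14, edgeR adjusted p = 0.000874), and in HFD scWAT its difference was 1.00 (SE 0.21, edgeR adjusted p = 0.0163), a call lost in the block of 9 libraries alone and on leaving out single libraries in 3 of 20 fits. Of the 18 immediate early genes listed 5 were tested in each depot, and 0 were called with training on HFD by edgeR (unadjusted p below 0.05 for 1 in each).

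**Figure D3:**
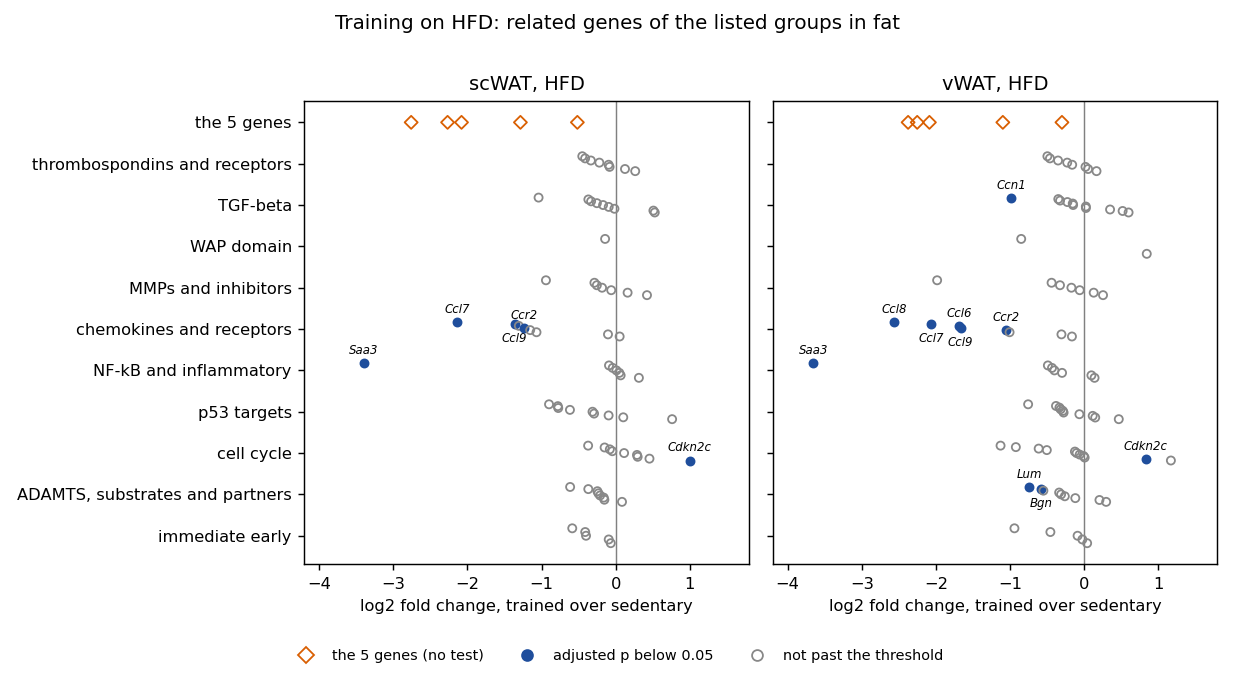
Log2 fold changes of trained over sedentary mice on HFD (x axis) for the 5 genes (open diamonds, not tested) and for the tested genes of 10 lists (rows), in scWAT and vWAT. Filled points are genes called at an adjusted p below 0.05; in vWAT these are 5 chemokine and receptor genes, Saa3, Ccn1, Lum and Bgn below 0 and Cdkn2c above 0.

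With diet the same lists gave 21 higher and 2 lower calls in scWAT, where 16.5% of all tested genes were called, and 12 higher and 0 lower in vWAT, where 11.3% were called. In scWAT 4 of 8 tested genes were called higher in each of the ADAMTS, thrombospondin and chemokine lists. In the ADAMTS list Bgn rose by 0.97 (log2, SE 0.13, edgeR adjusted p = 1.74e-05), the procollagen-processing enzyme gene Adamts2 by 1.16 (SE 0.22, edgeR adjusted p = 0.000745) and Lum by 0.86 (SE 0.20, edgeR adjusted p = 0.00426). In the thrombospondin list Lrp1, an endocytic receptor gene, rose by 0.70 (SE 0.13, edgeR adjusted p = 0.000388), Thbs2, a paralog of Thbs1, by 1.22 (SE 0.25, edgeR adjusted p = 0.00132) and the integrin gene Itgb1 by 0.63 (SE 0.13, edgeR adjusted p = 0.0019). Without the 6 libraries with lymph node transcripts the calls of Lum (0.62, adjusted p = 0.259), Thbs2 (0.98, adjusted p = 0.083) and Itgb1 (0.34, adjusted p = 0.221) were lost.

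Of the metalloproteinase list 3 of 7 tested were called higher in scWAT: the stromelysin gene Mmp3 by 1.57 (log2, SE 0.25, edgeR adjusted p = 0.000114), the inhibitor gene Timp4 by 0.90 (SE 0.14, edgeR adjusted p = 0.0001) and Mmp2 by 0.63 (SE 0.18, edgeR adjusted p = 0.0175). The Mmp2 call was lost with limma voom (adjusted p = 0.0583) and without the 6 libraries (0.53, adjusted p = 0.255). Ccn1 rose by 1.68 (SE 0.25, edgeR adjusted p = 5.9e-05), and Saa3 by 3.54 (SE 0.60, edgeR adjusted p = 0.000465). The Saa3 call was lost with limma voom (3.23, adjusted p = 0.189), in the block of 9 libraries alone (2.62, adjusted p = 0.0673) and without the 6 libraries (4.41, adjusted p = 0.054). In scWAT Saa3 passed the filter on low counts through sedentary HFD mice, the group where it was high.

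Other lists gave further calls in scWAT. The transcription factor genes Klf4 (0.70, SE 0.19, edgeR adjusted p = 0.0103) and Klf6 (0.46, SE 0.14, edgeR adjusted p = 0.0289), the latent TGF-beta binding protein gene Ltbp4 (0.53, SE 0.18, edgeR adjusted p = 0.0412) and Wfdc17 (0.86, SE 0.30, edgeR adjusted p = 0.0473), the 1 tested WAP domain gene, were higher on HFD. Nfkbia, the gene of an NF-kB inhibitor, was lower (-0.63, SE 0.21, edgeR adjusted p = 0.0383). Leaving out 1 library ended the call of Klf6 in 5 of 20 fits, of Ltbp4 and of Nfkbia in 12 each and of Wfdc17 in 13. Without the 6 libraries with lymph node transcripts Klf4 (0.52, adjusted p = 0.218), Ltbp4 (0.60, adjusted p = 0.193) and Nfkbia (0.047, adjusted p = 0.939) were not called, and limma voom did not call Ltbp4, Nfkbia or Wfdc17 (adjusted p of 0.0539 to 0.152). Ltbp4 was also not called by DESeq2 (adjusted p = 0.0679) or with no filter on low counts (adjusted p = 0.0926), nor was Nfkbia on total counts (adjusted p = 0.189). All 5 of these calls, and that of Mmp2, were lost in each library code block alone. Of 9 tested p53 targets 0 were called with diet in scWAT and of 10 in vWAT 0, by edgeR (unadjusted p below 0.05 for 2 and 0).

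In vWAT on HFD, Adamts2 rose by 0.72 (log2, SE 0.12, edgeR adjusted p = 4.16e-05), Lum by 0.84 (SE 0.14, edgeR adjusted p = 9.88e-05) and Bgn by 0.56 (SE 0.12, edgeR adjusted p = 0.00167), and these 3 calls stayed under all 8 alternatives and all 20 fits that left out 1 library. The macrophage elastase gene Mmp12 rose by 3.10 (SE 0.61, edgeR adjusted p = 0.0028), Ccl7 by 1.81 (SE 0.37, edgeR adjusted p = 0.0028), Ccl9 by 1.275 (SE 0.27, edgeR adjusted p = 0.00491) and Ccr2 by 0.69 (SE 0.18, edgeR adjusted p = 0.00942). Saa3 rose by 2.50 (SE 0.60, edgeR adjusted p = 0.0102), the adhesion molecule gene Vcam1 by 0.74 (SE 0.22, edgeR adjusted p = 0.0212), the metalloproteinase gene Mmp19 by 0.66 (SE 0.20, edgeR adjusted p = 0.0243) and Ccn1 by 0.70 (SE 0.21, edgeR adjusted p = 0.0262). The calls of these 8 genes were lost with the library code block as a factor (adjusted p of 0.0609 for Ccl7 to 0.24 for Saa3) and in the block of 12 libraries alone (0.0674 for Mmp12 to 0.287 for Saa3). Both fits draw the diet difference from that block, since the other vWAT blocks each held a single diet. Limma voom did not call Saa3, Vcam1 or Mmp19 (adjusted p of 0.0517 to 0.0806), and Ccn1 was not called with no filter on low counts (adjusted p = 0.0542). Leaving out 1 library ended the call of Mmp19 in 5 of 20 fits, of Ccn1 in 4 and of Vcam1 in 1.

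In scWAT Ccr2 gave 0.27 with diet (log2, SE 0.22, edgeR adjusted p = 0.463), while Ccl9 rose by 1.39 (SE 0.24, edgeR adjusted p = 0.000276), Ccl6 rose by 1.63 (SE 0.27, edgeR adjusted p = 0.000345) and the eotaxin gene Ccl11 by 1.10 (SE 0.16, edgeR adjusted p = 4.01e-05). Cd36 rose by 0.63 (SE 0.16, edgeR adjusted p = 0.00874) in scWAT and gave 0.07 (SE 0.07, edgeR adjusted p = 0.6) in vWAT; its scWAT call was lost without the 6 libraries with lymph node transcripts (0.27, adjusted p = 0.41). In the block of 9 libraries alone the scWAT calls of Ccl9 (1.32, adjusted p = 0.0974), Lrp1 (0.48, adjusted p = 0.305) Itgb1 (0.69, adjusted p = 0.143), Cd36 (0.75, adjusted p = 0.207) and Timp4 (0.83, adjusted p = 0.0925) were lost, and in the block of 11 that of Lum (0.70, adjusted p = 0.0679).

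The genes most like each of the 5 over the 40 fat libraries were found by the mean absolute difference in log2 CPM, each gene centred on its mean within a depot, among 6508 genes of sufficient level. This is a description, since libraries of a group share their treatment. Ccl2 lay nearest to Ccl7 (0.43), then Ccl9 (0.59) and Hp (0.59), where a gene that did not vary at all would lie at 0.95. Wfdc21 lay nearest to Prelp (0.27), Anxa1 (0.34) and Cavin3 (0.34), against 0.81 for an unvarying gene. Adamts5 lay nearest to Npr3 (0.33), Lpgat1 (0.36) and Trp53inp2 (0.36), against 0.77.

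Thbs1 and Cdkn1a had no comparably close neighbour. Thbs1 lay nearest to Ppic (0.55), Ccl7 (0.58) and Fn1 (0.58), against 0.87 for an unvarying gene, and Cdkn1a to Angptl4 (0.64), Mt2 (0.65) and Fosl2 (0.67), against 0.97. Trp53inp2, the next gene for Thbs1, also lay at 0.58. Centred over both depots, Hp replaced Prelp as the gene nearest to Wfdc21, and Prelp left its nearest 3. Among the nearest 3, Hp replaced Fn1 for Thbs1, and Adgre1 replaced Ccl9 for Ccl2. Tubb2a replaced Mt2 for Cdkn1a, and Lbp replaced Trp53inp2 for Adamts5. The single nearest gene stayed the same for Thbs1, Ccl2, Cdkn1a and Adamts5. Among the 5 themselves, Wfdc21 and Adamts5 were closest (0.43) and Ccl2 and Adamts5 farthest apart (0.79).

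In triceps the 5 genes were scarce, and 1 of them, Adamts5, had enough counts to enter the test across genes. Adamts5 had 25.3, 12.5, 10.4, 13.6 and 17.5 CPM in trained HFD mice, against 25.8, 22.7, 12.5, 30.3 and 12.8 CPM in sedentary HFD mice. It had 13.7, 20.6, 9.81, 12.2 and 8.29 CPM in trained chow mice, against 10.2, 21.96, 26.3, 16.9 and 19.7 CPM in sedentary chow mice. By edgeR it was not called with training on HFD (log2 -0.21, SE 0.30, adjusted p = 0.768), where 5.58% of 4410 tested genes were called, nor with training on chow (-0.43, SE 0.31, adjusted p = 0.676), where 0.726% were. With diet it gave 0.17 (SE 0.21, adjusted p = 0.915), a contrast in which edgeR called 0 genes, 310 had an unadjusted p below 0.05, DESeq2 called 13 and limma voom 2.

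The other 4 genes were compared by permuting the labels trained and sedentary within each diet, exactly and two-sided, over 10 trained and 10 sedentary mice. This test was chosen after the counts had been seen, it was run on all 5 genes, and its p-values are not adjusted. The smallest p it can give is 3.15e-05. The mice are those whose fat chose the genes, so the test is no independent check of the training differences. Cdkn1a gave the smallest p of the 5. It had 2.81, 0, 1.48, 0 and 5.37 CPM in trained HFD mice, against 18.2, 2.84, 9.70, 12.4 and 9.94 CPM in sedentary HFD mice. It had 0, 4.13, 11.2, 1.35 and 4.15 CPM in trained chow mice, against 7.29, 8.24, 27.7, 15.4 and 8.42 CPM in sedentary chow mice.

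Summed over diets, these were 22 reads of Cdkn1a in trained mice and 84 in sedentary mice, and the mean difference was -8.96 CPM (3.05 against 12.0 CPM, exact permutation p = 0.000756). With labels permuted within diet and library code block the exact p was 0.00229, and on TMM-scaled values 0.00236. In an edgeR fit with no filter on low counts, over 20693 genes, Cdkn1a was called lower on HFD (log2 -2.17, SE 0.53, adjusted p = 0.00792) and gave -1.54 (SE 0.44, adjusted p = 0.109) on chow. That fit called 236 genes with training on HFD and 61 on chow, and it did not call Thbs1 (adjusted p = 0.634 on HFD and 0.615 on chow) or Ccl2 (0.634 and 0.686). Trained and sedentary mice overlapped on both diets.

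Thbs1 had 0 to 2 reads in each trained triceps library and 1 to 9 in each sedentary one, 15 reads against 39 in all. In chow mice it had 1.37, 2.75, 2.80, 2.71 and 1.38 CPM in trained muscle, against 2.92, 5.49, 9.68, 4.61 and 12.6 CPM in sedentary muscle. In reads these were 1, 2, 2, 2 and 1 in trained mice and 2, 4, 7, 3 and 9 in sedentary mice, which overlapped at 2 reads, so the gap between 2.80 and 2.92 CPM is set by the library totals. In CPM all trained chow libraries were below all sedentary chow libraries for 3.67% of the tested genes; on HFD trained libraries were below sedentary ones for 0 of the 5 genes and for 5.85% of all genes. In HFD mice it had 2.81, 2.77, 2.96, 1.36 and 0 CPM in trained muscle, against 1.52, 1.42, 2.77, 8.27 and 5.68 CPM in sedentary muscle, which did overlap. The mean difference over both diets was -3.41 CPM (exact permutation p = 0.00454), and the p was 0.0101 within diet and library code block.

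Ccl2 had 3 reads in the 10 trained triceps libraries and 14 in the 10 sedentary ones, a mean difference of -1.55 CPM (exact permutation p = 0.0227) that did not pass 0.05 on TMM-scaled values (p = 0.0531) or within library code block (p = 0.0563). Without sedentary chow replicate 2 its p was 0.0639, and without trained chow replicate 1, 2, 4 or 5 it was 0.056 by the same exact permutation. Adamts5 differed by -5.53 CPM (exact permutation p = 0.0591), and the p fell below 0.05 (0.023 to 0.0342) without any 1 of 5 libraries: sedentary chow replicate 1, trained chow replicate 2, sedentary HFD replicates 3 and 5 and trained HFD replicate 1. Wfdc21 had 25 reads in trained and 24 in sedentary triceps (a difference of 0.137 CPM, exact permutation p = 0.934), and its sign changed when single libraries were left out.

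Adipocyte genes in triceps summed to 349 to 797 CPM in trained mice and 317 to 962 CPM in sedentary mice, with none of the 8 at 0. Per 1000 reads of those adipocyte genes, Cdkn1a had 21.3 reads in sedentary HFD triceps, against 1.66 in sedentary HFD vWAT and 1.08 in sedentary HFD scWAT. The same ratio for Thbs1 was 8.06 in sedentary HFD triceps, against 4.01 in vWAT and 1.95 in scWAT. For Wfdc21 it was 2.30 in sedentary HFD triceps, against 25.6 in vWAT and 10.96 in scWAT, and on chow it was 8.51 in sedentary triceps, against 8.33 in vWAT and 3.77 in scWAT. In trained chow mice the Wfdc21 ratio was 6.30 in triceps, against 3.50 in vWAT and 2.24 in scWAT. Over the pooled reads of a group the Cdkn1a ratio was higher in triceps than in either depot in all 4 groups. On HFD the 10 skeletal muscle genes summed to 59875 to 86413 CPM in trained triceps against 87489 to 124622 CPM in sedentary triceps, with no overlap and none at 0; 4 of the 10 were called lower and 2 higher. On chow the sums were 77508 to 101688 CPM in trained triceps against 95705 to 118164 CPM in sedentary triceps. Their part in the differences of Cdkn1a, Thbs1 and Ccl2 was not tested. For training in triceps the median of all genes was shifted by 0.18 on HFD and 0.12 on chow when TMM scaling replaced total counts.

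**Figure D4:**
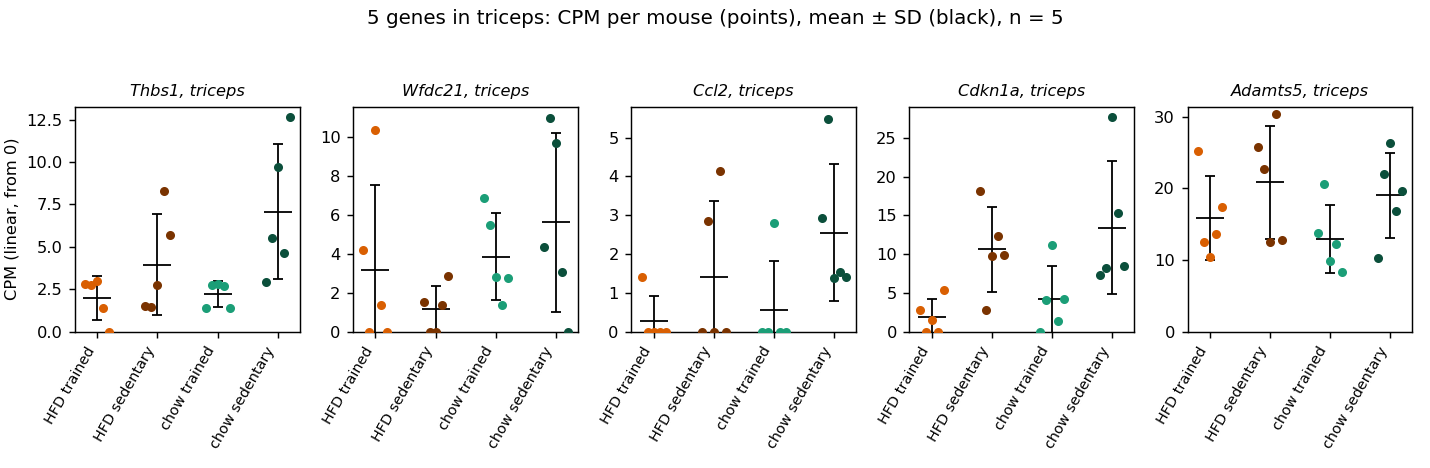
CPM of the 5 genes in triceps (y axis, linear from 0, a scale of its own in each panel) by group (x axis). Points are mice, and black bars are the mean ± SD of 5 mice. Cdkn1a has 1.93 ± 2.25 CPM in trained and 10.6 ± 5.53 CPM in sedentary HFD mice, and 4.17 ± 4.33 CPM in trained and 13.4 ± 8.61 CPM in sedentary chow mice.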

How the data were processed

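RNA was measured by 3′ digital gene expression sequencing in 60 libraries of 20 mice. Per the submitters' processing notes, Salmon 0.14.2 and the mm10 build were used. The deposited table held estimated counts per gene, rounded by the authors, and log2 values that the authors made from CPM plus 1; the counts were tested and the log2 values served to check the unit. The sources name no strand setting and no step that removed PCR copies. Symbols were blank for 259 genes, and these were kept.

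Groups came from the sample titles. Each tissue was fitted alone with edgeR 4.0.16 in R 4.3.3 (TMM, filterByExpr by group, robust quasi-likelihood), which left 7069, 6990 and 4410 genes in scWAT, vWAT and triceps; depots were compared in 1 fit with the animal as a block. A gene was called at a two-sided Benjamini-Hochberg adjusted p below 0.05 over all genes tested. CPM values are on total counts and fold changes on the TMM scale. The fits were tested on simulated data. Alternatives used DESeq2 1.42.0, limma 3.58.1, other scalings, no filter, a replicate block, library code blocks (their boundaries inferred) and leaving out libraries.

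The 5 genes, the gene lists and the comparisons were chosen with earlier results of these data known. For training and diet in fat, the called genes of each list were named, or the 3 with the lowest adjusted p where more than 3 were called. A fixed set of partner genes entered whatever they gave, by value or within a list's count, and 1 of these is not reported here. The difference between depots in the diet effect, the permutation test in triceps and the comparisons without mice whose scWAT held lymph node transcripts in both depots were added after the data were seen. Reads of a bulk library cannot be assigned to cells.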

Additional observations from a re-analysis of the deposited data

Results flagged for a closer look

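In 60 sets of 5 values (5 genes in each of 12 groups), the gap of the highest or lowest mouse to its nearest neighbour, as a share of the set's range, was over the critical value of 0.71 in 9. Chance gives about 1 in 20 for independent sets, but these sets come from the same 20 mice and are not independent. Wfdc21 was lowest in trained HFD replicate 3 in both scWAT (0.809) and vWAT (0.877), which is 1 mouse. Sedentary chow replicate 1, also 1 mouse in both depots, was highest for Wfdc21 in scWAT (0.729) and vWAT (0.725), for Adamts5 in scWAT (0.746) and for Ccl2 in vWAT (0.737). Thbs1 was highest in trained HFD replicate 2 of vWAT (0.888). In triceps, Ccl2 had reads in 1 mouse alone in the trained HFD group (replicate 1, gap 1, 1 read) and in the trained chow group (replicate 3, gap 1, 2 reads).

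The effect of diet was larger in scWAT than in vWAT for Wfdc21 by 0.562 (log2, SE 0.16, edgeR adjusted p = 0.0335) and for Adamts5 by 1.04 (SE 0.29, edgeR adjusted p = 0.0447), where 3.2% of all genes were called higher. Leaving out 1 mouse ended the call in 12 of 20 fits for Wfdc21 (adjusted p up to 0.104) and in 15 of 20 for Adamts5 (adjusted p up to 0.111). The calls stayed for Wfdc21 without sedentary chow replicate 1 or 3, trained chow replicate 1 or 3, sedentary HFD replicate 1 or 3 or trained HFD replicate 3 or 5, and for Adamts5 without sedentary chow replicate 1 or 3, trained chow replicate 3, sedentary HFD replicate 3 or trained HFD replicate 3. Without the 6 mice whose scWAT held lymph node transcripts, all on chow, the values were 0.24 (adjusted p = 0.703) and 0.44 (adjusted p = 0.739). For Wfdc21 the call was also lost without the animal block (0.51, adjusted p = 0.235) and with no filter on low counts (0.56, adjusted p = 0.0749). For Thbs1, Ccl2 and Cdkn1a the difference was 0.87 (adjusted p = 0.0727), -0.72 (adjusted p = 0.611) and 0.26 (adjusted p = 0.752), and that of Thbs1 was called without trained chow replicate 1 (0.98, adjusted p = 0.0393) or sedentary HFD replicate 3 (1.02, adjusted p = 0.0188).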

How the results depend on the processing

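Of 2768 recomputed values, 2490 were scored as keeping their direction and side of the threshold, 231 lost and 30 gained the threshold and 17 changed sign. The cause was not tested. The tally includes the training differences in fat that chose the 5 genes, and the likeness distances, which have no threshold. Most of its values come from fits that left out 1 library and so share most of their data. For the diet difference, Wfdc21 and Adamts5 in both depots and Thbs1 in scWAT kept their calls under every alternative run. Counts over all genes moved more. Training on HFD in scWAT called 71 genes, and 148 with DESeq2, 199 with no filter, 0 and 22 within the library code blocks of 9 and 11 libraries and 109 without the 6 libraries with lymph node transcripts. Training on chow in scWAT called 0, and 3 with DESeq2, 30 with no filter, 2 with the replicate block and 1 with the code block as a factor. Diet in scWAT called 1167, and 134 in the block of 9 libraries and 483 without the 6 libraries. In vWAT, training on HFD called 216, and 357 with no filter, 334 with the code block as a factor and 65 in the block of 12; training on chow called 41, and 22 with limma voom, 83 with no filter and 6 in the block of 12; diet called 793, and 1407 on total counts, 395 with the code block as a factor and 415 in the block of 12. In triceps, training on HFD called 246 and 423 on total counts; training on chow called 32, and 100 with DESeq2 and 61 with no filter; diet called 0, and 13 with DESeq2, 2 with limma voom, 59 with no filter and 13 with the replicate block. On leaving out 1 library, counts ran from 28 to 88 (training on HFD), 0 to 5 (on chow) and 936 to 1361 (diet) in scWAT, 84 to 340, 21 to 51 and 653 to 890 in vWAT, 121 to 293, 14 to 67 and 0 to 4 in triceps, and 2001 to 2189 between depots.

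Signs changed for Ccl2 (0.23, block of 9) and Thbs1 (0.37, block of 11) with training on chow in scWAT, and for Thbs1 there without single libraries (-0.29 to 0.023). With training on HFD in vWAT they changed for Mmp2 with limma voom (0.016), in the block of 12 (0.25) and without single libraries (-0.18 to 0.23), and for Mdm2 without single libraries (-0.068 to 0.26). Nfkbia with diet in scWAT gave -0.63 and 0.047 without the 6 libraries, and Wfdc21 in triceps ran from -0.82 to 0.88 CPM without single libraries. The replicate numbers do not pair the mice: correlations of same-numbered libraries' deviations spanned -0.186 to 0.564 (scWAT), -0.213 to 0.289 (vWAT) and -0.268 to 0.193 (triceps), and 7, 4 and 4 of 20 libraries correlated best with their own number. Under the replicate block Cdkn1a was called with diet in scWAT (0.79, adjusted p = 0.0337). Depth limits Ccl2 and Cdkn1a, often under 10 reads per library, and Thbs1 in triceps and in chow scWAT. In chow scWAT Thbs1 had 4 to 8 reads per trained library and 3 to 9 per sedentary one.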
